A study of Mus musculus with 12 samples.

Results

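The genes described here are the muscle ubiquitin ligases Trim63, Trim54, Trim55, Fbxo32, Fbxo30 and Fbxo40 and the FoxO transcription factors Foxo1, Foxo3 and Foxo4. They were picked by symbol as a fixed list of 9 genes, with earlier results of these data known. All 9 were found among the 47643 genes of the count table. RNA came from the gastrocnemius, a calf muscle, of female C57BL/6J mice aged 11 weeks, labelled either control or c-myc over-expression (here Myc). Both legs of each of the 6 animals (3 per genotype) were sampled, the left without contraction and the right after acute contraction. The 12 libraries thus form 4 groups of 3, and contraction cannot be told apart from body side. The means of over-expression, its target cells and the delay from contraction to sampling are not given in the sources used here. The study compared contraction, Myc over-expression and both together in skeletal muscle.

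Muscle breaks down its contractile proteins largely by tagging them with ubiquitin for the proteasome. MuRF1, the protein of Trim63, is a RING-finger ligase that binds titin and tags thick-filament proteins, and its relatives MuRF2 (Trim55) and MuRF3 (Trim54) share its domain plan and associate with microtubules and the sarcomere. Atrogin-1 (Fbxo32), MUSA1 (Fbxo30) and Fbxo40, which targets the insulin receptor substrate IRS1, are F-box proteins, the substrate-binding part of a cullin ligase. FoxO factors are held in the cytoplasm by AKT when insulin or IGF1 signals, and when released they are known to drive Trim63, Fbxo32 and Fbxo30 in wasting muscle.

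Promoter sequences are shown for Trim63, the gene most of the comparisons turn on, and for its MuRF relative Trim54. RefSeq windows of 250 bases before the start site (GRCm38.p6) were matched for 6 of the 9 genes, 7 windows in all. No window was at hand for Trim55, Fbxo32 or Foxo4, so the motifs were not searched in those genes. Below are those of Trim63 (chr4:134314870-134315119, plus strand) and Trim54 (chr5:31116362-31116611, plus strand). Capitals mark the FoxO core TGTTTAC (or GTAAACA on the other strand) and the half-site of the glucocorticoid receptor TGTTCT (or AGAACA), motifs that were searched on both strands.
Trim63: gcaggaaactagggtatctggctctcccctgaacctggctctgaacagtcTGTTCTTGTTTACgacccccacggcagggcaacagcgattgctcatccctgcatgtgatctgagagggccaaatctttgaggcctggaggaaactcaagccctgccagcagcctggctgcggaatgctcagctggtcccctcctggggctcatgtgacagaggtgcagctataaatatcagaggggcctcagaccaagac
Trim54: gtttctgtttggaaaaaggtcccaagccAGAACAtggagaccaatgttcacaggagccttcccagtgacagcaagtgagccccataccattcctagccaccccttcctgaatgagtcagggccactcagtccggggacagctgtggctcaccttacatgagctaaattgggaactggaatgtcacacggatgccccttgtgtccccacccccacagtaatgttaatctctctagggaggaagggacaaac
In Trim63 the half-site lies 200 to 195 bases before the start and the FoxO core follows it at once, at 194 to 188 bases, with no bases shared. The Trim54 window holds the half-site alone, on the other strand, 222 to 217 bases before the start. Starts here are those of RefSeq, and the GENCODE position of Trim54 given below begins farther downstream, at 31116712. Among all 32851 RefSeq windows, 3.17% hold the FoxO core and 16.1% the half-site. Neither the FoxO core nor CACGTG, the E-box bound by MYC and present in 6.02% of windows, was found in the windows of Trim54, Foxo1, Foxo3, Fbxo30 or Fbxo40, and Trim63 had no CACGTG. One of the 2 Fbxo40 windows holds the half-site. These matches are letters in a window, and no binding was measured.

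Before the results, 4 libraries need naming. In animals 2 and 3 of each genotype, the Myc reads of the contracted leg went against the label (10 and 59 reads where labelled control, 0 and 2 where labelled Myc). Their uncontracted legs followed it (1 and 0 reads where labelled control, 9 and 9 where labelled Myc). Whether contraction itself changed the Myc reads or the labels are wrong was not tested. These contracted libraries are called the 4 doubtful libraries, a name for the mismatch and not a finding of wrong labels. Genotypes are given as labelled. Contraction is tested first over both genotypes, which compares the same 6 contracted and 6 uncontracted libraries whatever those labels. The fit still used means and spread of the groups as labelled, so its estimate and SE can depend on the labels. Total counts were 1371732 to 1643216 per library, so that 1 read was worth 0.609 to 0.783 CPM (the read count scaled to library size), and mitochondrial transcripts took 27.1 to 35.2% of reads. The 5 muscle fibre markers summed to 50180 to 63890 CPM in every library, and none passed the contraction test. Neutrophil markers were near 0 in uncontracted legs (0 to 3.72 CPM summed over 4 genes) and higher in contracted ones (4.91 to 68.2 CPM); the 2 of them with enough reads to test both rose, and Ly6g was at 0 throughout. All 4 tested haemoglobin genes rose. The 5 erythrocyte markers, these and the untested Alas2, summed to 314 to 468.2 CPM in uncontracted and 403.7 to 1013 CPM in contracted legs, ranges that overlap. Of 4 tested macrophage markers Cd68 rose and Csf1r and C1qa fell. The satellite cell marker Chodl, the 1 of 3 tested, fell, and the 3 summed to 16.5 to 24.5 CPM in uncontracted and 9.18 to 15.2 CPM in contracted legs. Of 4 smooth muscle and pericyte markers Acta2 fell (161 to 199 CPM summed against 122 to 167 CPM). The part of these cells in the values below was not tested. In muscle pieces of this kind fewer cells of a type and less RNA per cell cannot be told apart.

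In contracted legs Trim63 rose, Foxo1 and Foxo4 fell, and the other 4 genes that could be tested gave no call. Of the 9 genes 7 passed the low-count filter of the test across all genes, and of those 1 rose and 2 fell. The background is 5.71% of 6676 genes called higher and 1.77% called lower (7.47% in either direction). The median log2 change of the 7 was -0.0441, beside -0.00337 for all genes tested.

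**Figure D1:**
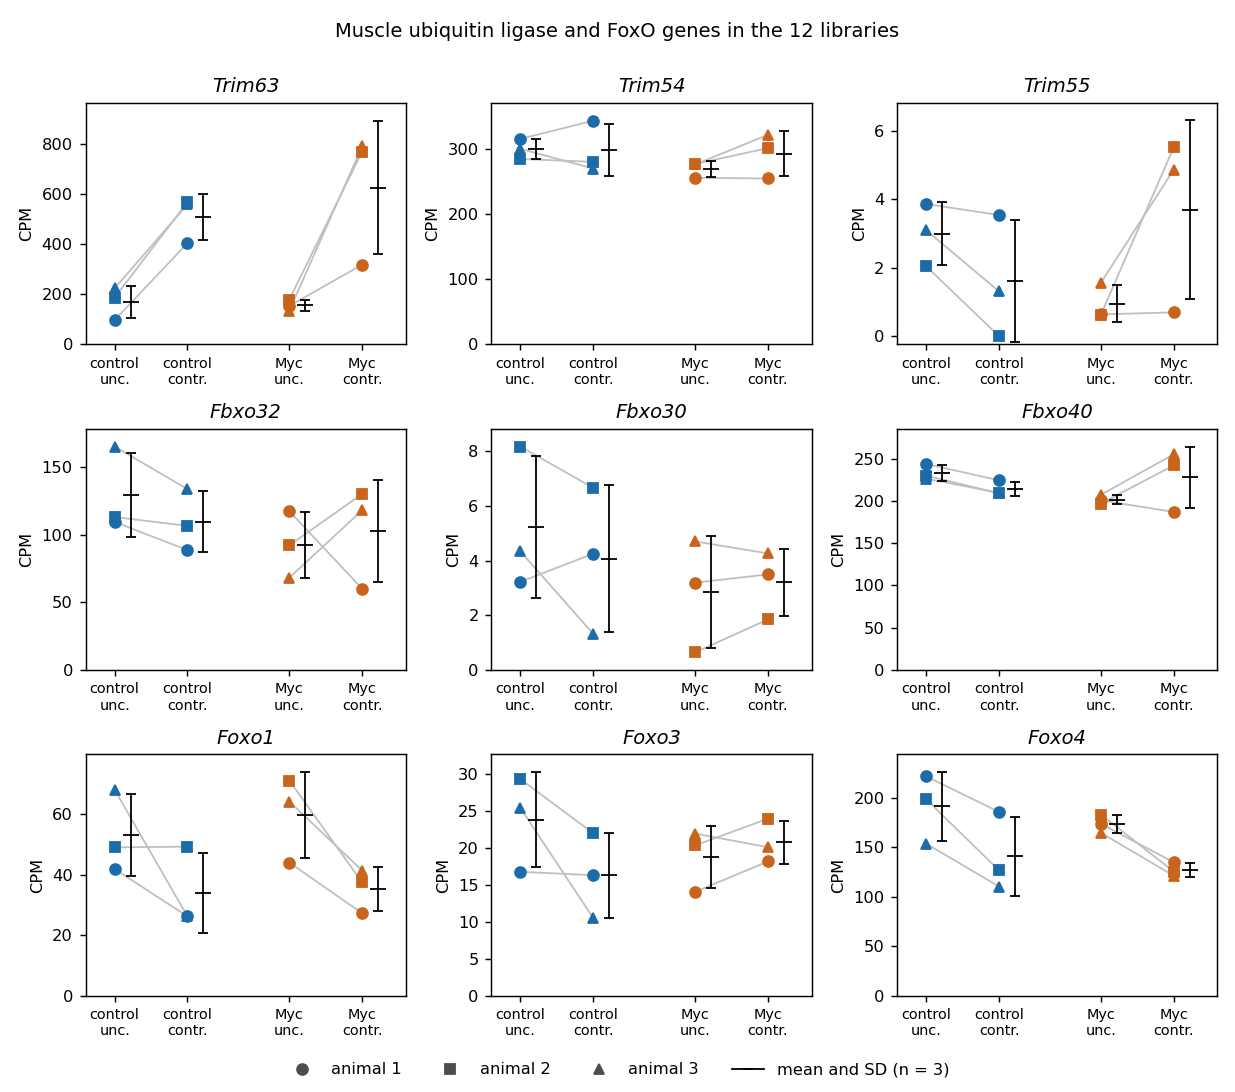
Levels of the 9 genes in CPM (vertical axis, linear) in each of the 12 libraries, by genotype and leg (unc., uncontracted; contr., contracted). Grey lines join the legs of an animal, and black bars give the mean and SD of 3 libraries; Trim63 was at 96.0 to 223 CPM in uncontracted and 318 to 792 CPM in contracted legs, whereas Trim54 and Fbxo40 overlapped between legs.

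Among the MuRF ligases, Trim63 (chr4:134315120-134329629, plus strand, protein coding) stood at 96.0, 186 and 223 CPM in uncontracted legs labelled control 1, 2 and 3, and at 152, 178 and 134 CPM in those labelled Myc. The contracted legs held 404, 568 and 559 CPM when labelled control and 318, 771 and 792 CPM when labelled Myc. All 6 contracted libraries were above all 6 uncontracted ones, a separation that 2.95% of genes tested showed in this direction. Trim63 rose 3.50-fold over both genotypes, or by 1.81 ± 0.20 on the log2 scale (SE; 95% interval 1.40 to 2.22; edgeR adjusted p = 1.30e-06). Within animals the contracted leg was higher in 6 of 6, by 2.08-fold in Myc 1 up to 5.90-fold in Myc 3.

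By genotype as labelled, Trim63 went from 168 ± 65.3 to 510.5 ± 92.4 CPM (SD, n = 3) in control animals and from 155 ± 22.1 to 627 ± 268 CPM in Myc animals. It passed in both (edgeR adjusted p = 0.00109 and 6.43e-05), where 2.38% and 3.45% of all genes were called higher. The log2 changes were 1.6 ± 0.28 and 2.02 ± 0.28. The test of their difference gave no call (0.42 ± 0.39, 95% interval -0.391 to 1.22, edgeR adjusted p = 0.970), and its interval is wide. Among contracted Myc legs 1 library, Myc 1, stood at 318 CPM, while the other two were the highest of the 12. Those other two held 0 and 2 Myc reads, and Myc 1 held 32. With those 4 contracted libraries left out, Trim63 still passed over both genotypes (1.15, edgeR adjusted p = 0.000527) and in control animals (1.25, edgeR adjusted p = 0.0132). In Myc animals the change was then 1.05 (edgeR adjusted p = 0.0771). Each genotype is left there with 1 contracted library, which is assumed to vary like the other groups.

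Trim54 (chr5:31116712-31137630, plus strand) kept a narrow range. It stood at 255 to 315 CPM in uncontracted and 254 to 343 CPM in contracted legs, so the legs overlapped fully. Its contraction change was 0.0540 ± 0.0902 on the log2 scale (95% interval -0.134 to 0.242; edgeR adjusted p = 0.803).

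Trim55 (chr3:19644474-19692421, plus strand) was barely counted, with 0 to 9 reads per library and 43 in all, which the low-count filter left out. Without the filter its change was 0.53 ± 0.54 on the log2 scale (edgeR adjusted p = 0.874). Its reads in animals 1, 2 and 3 were 6, 3 and 5 in uncontracted and 5, 0 and 2 in contracted legs labelled control. In legs labelled Myc they were 1, 1 and 2 uncontracted and 1, 9 and 8 contracted. The 2 libraries with the most Trim55 reads, contracted Myc 2 and 3, were also those with the most Trim63.

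Taken as a share of the reads of these 3 MuRF genes, which 3' tags allow without dividing by transcript length, Trim63 made up 23.1, 39.4 and 42.4% in the uncontracted legs of control 1, 2 and 3 and 37.3, 39.1 and 32.6% in those of Myc 1, 2 and 3. In contracted legs it was 53.8, 67.0 and 67.4% in control 1, 2 and 3 and 55.5, 71.6 and 70.8% in Myc 1, 2 and 3. The highest uncontracted share (control 3, 95% Wilson interval 39.1 to 45.8%) and the lowest contracted one (control 1, 50.8 to 56.8%) were apart by more than counting error. Trim63 was outnumbered by Trim54 in each uncontracted library (0.305 to 0.744 Trim63 reads per Trim54 read) and outnumbered it in each contracted library (1.18 to 2.56).

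The atrophy ligase most often measured beside Trim63 is Fbxo32 (chr15:58175879-58214932, minus strand), and it gave no call. In uncontracted legs labelled control 1, 2 and 3 it stood at 109.5, 113 and 165 CPM and in those labelled Myc at 117, 92.2 and 68.1 CPM. The contracted legs held 88.6, 107 and 134 CPM when labelled control and 60.1, 130.2 and 118 CPM when labelled Myc. The legs overlapped, and the change over both genotypes was -0.0441 ± 0.168 on the log2 scale (95% interval -0.394 to 0.306; edgeR adjusted p = 0.924), and -0.59 with the 4 doubtful libraries left out, also with no call. Within animals Fbxo32 was lower in the contracted leg of 4 and higher in 2, Myc 2 (1.41-fold) and Myc 3 (1.73-fold). Those 2 animals also had the largest within-animal gains of Trim63, 4.33-fold and 5.90-fold.

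Fbxo40 (chr16:36963460-36990467, minus strand) stood at 197 to 244 CPM in uncontracted and 187 to 256 CPM in contracted legs. Its change was 0.0284 ± 0.0895 on the log2 scale (95% interval -0.158 to 0.215; edgeR adjusted p = 0.907). All 3 animals labelled control had less in the contracted leg (0.908 to 0.926-fold), with no overlap between legs, as in 7.13% of genes tested in this direction. So did Myc 1 (0.932-fold), whereas Myc 2 and 3 both had 1.23-fold. Fbxo30 (chr10:11281330-11298052, plus strand) had 1 to 12 reads per library, 36 in uncontracted and 33 in contracted legs, and was left out by the filter too. Without the filter its change was -0.0700 ± 0.40 on the log2 scale (edgeR adjusted p = 1).

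**Figure D2:**
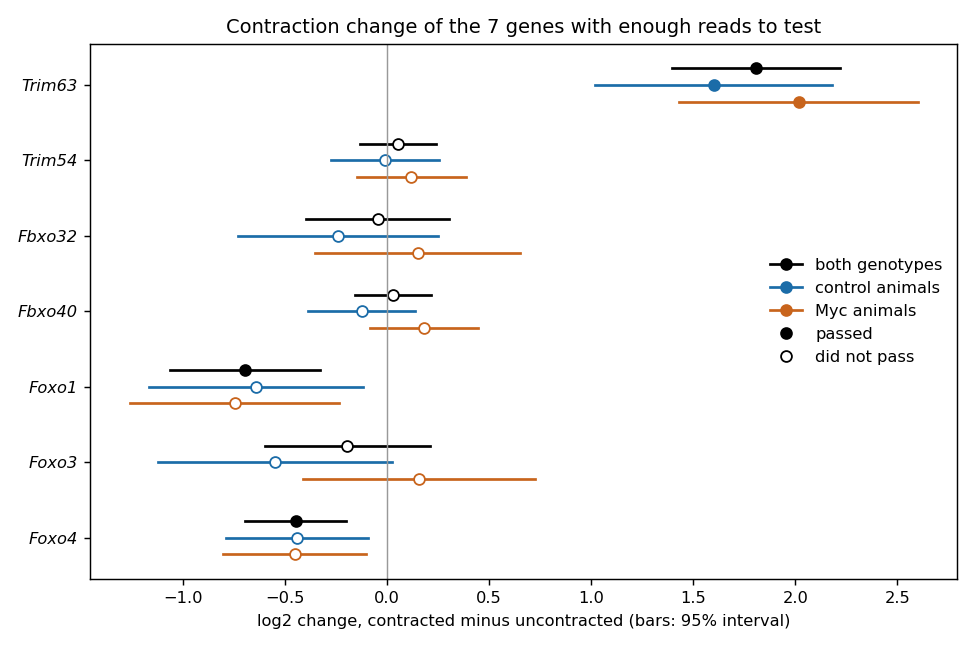
Log2 change from uncontracted to contracted legs (horizontal axis) with 95% intervals for the 7 genes tested, over both genotypes (black), in animals labelled control (blue) and labelled Myc (orange). Filled points passed at an adjusted p under 0.05; Trim63 lies at 1.81 over both genotypes, Foxo1 at -0.70 and Foxo4 at -0.45.

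Among the FoxO factors, Foxo4 (chrX:101254528-101260873, plus strand) fell in every animal. The uncontracted legs held 222, 198 and 154 CPM in control 1, 2 and 3 and 174, 183 and 164 CPM in Myc 1, 2 and 3. The contracted legs held 186, 127 and 110 CPM in control and 135, 125 and 121 CPM in Myc. Only contracted control 1 reached into the uncontracted range, and in animals labelled Myc the legs did not overlap, as in 9.20% of genes tested in this direction. Foxo4 fell by 0.45 ± 0.12 on the log2 scale over both genotypes (95% interval -0.695 to -0.201; edgeR adjusted p = 0.0204), with contracted legs at 0.639 to 0.838 of the uncontracted level in 6 of 6 animals. The change was -0.44 ± 0.17 in control and -0.45 ± 0.17 in Myc animals and passed in neither alone (edgeR adjusted p = 0.222 and 0.165). In control animals it moved with single libraries, from -0.29 without contracted control 3 to -0.70 without contracted control 1, where it passed (edgeR adjusted p = 0.0111). The call rests on single libraries: it was lost without uncontracted control 1 (edgeR adjusted p = 0.0552), contracted control 2 (0.0691) or 3 (0.0713), uncontracted Myc 2 (0.0609) or contracted Myc 2 (0.0501) or 3 (0.0607), with changes of -0.37 to -0.44. With the 4 doubtful contracted libraries left out the change was -0.20 (edgeR adjusted p = 0.868), at -0.0471 in control and -0.35 in Myc animals.

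Foxo1 (chr3:52268336-52353221, plus strand) was less abundant in tags, at 41.9, 49.1 and 68.1 CPM in uncontracted legs labelled control and 44.0, 71.2 and 64.2 CPM in those labelled Myc. Contracted legs held 26.2, 49.3 and 26.2 CPM when labelled control 1, 2 and 3 and 27.2, 37.5 and 41.4 CPM when labelled Myc. The legs overlapped in control animals, through contracted control 2, and not in Myc animals, where 9.20% of genes tested were apart in this direction. Foxo1 fell by 0.70 ± 0.18 on the log2 scale (to 0.618-fold; 95% interval -1.06 to -0.328; edgeR adjusted p = 0.0155). It was lower in the contracted leg of 5 of 6 animals and level in control 2 (72 reads uncontracted, 74 contracted). It passed in neither genotype alone (-0.64 ± 0.25 in control and -0.75 ± 0.25 in Myc animals, edgeR adjusted p = 0.247 and 0.102). The change was -1.07 with the 4 doubtful libraries left out (edgeR adjusted p = 0.0139). The fall did not pass without uncontracted control 3 (-0.58, edgeR adjusted p = 0.0560) or uncontracted Myc 2 (-0.62, edgeR adjusted p = 0.0573).

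Foxo3 (chr10:42181841-42276755, minus strand) had 16 to 43 reads per library and gave no call (-0.19 ± 0.19 on the log2 scale, 95% interval -0.600 to 0.210; edgeR adjusted p = 0.643). It had a mean of 23.8 ± 6.42 CPM in uncontracted and 16.3 ± 5.75 CPM in contracted legs labelled control (SD, n = 3), and of 18.8 ± 4.18 and 20.7 ± 2.95 CPM in those labelled Myc. The reads of the 3 FoxO genes together came to 232 to 280 CPM in each uncontracted and 147 to 228 CPM in each contracted library, and the legs did not overlap. Among single genes 0.869% of those tested were apart in this direction, and no such share was computed for sums.

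Whether Trim63 changed more than its relatives was tested within libraries, as the ratio of its reads to those of each relative, which needs no scaling. The ratio was higher in contracted legs for all 8 relatives. It rose 3.35-fold against Trim54, 3.61-fold against Fbxo32, 3.41-fold against Fbxo40, 5.66-fold against Foxo1, 3.98-fold against Foxo3 and 4.74-fold against Foxo4. In each of those 6 the contracted and uncontracted libraries did not overlap (2-sided exact permutation test of 6 against 6 libraries, p = 0.00216, the smallest it can give; 0.00289 adjusted over 8 ratios). Against the sparsely counted Trim55 and Fbxo30 the legs overlapped, with ratios higher by 1.76 and 1.83 on the log2 scale (exact permutation p = 0.0260 and 0.0238, both 0.0260 adjusted). The Trim55 comparison did not hold when legs were paired by animal (exact sign-flip test, adjusted p = 0.0625), and neither held with the 4 doubtful libraries left out (1.17 and 0.99, exact permutation, both adjusted p = 0.286). The 8 ratios share the Trim63 reads and are not independent. The genes were chosen with earlier results of these data known, and Trim63 alone already set the legs apart. These p-values are thus no independent support for singling out Trim63.

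**Figure D3:**
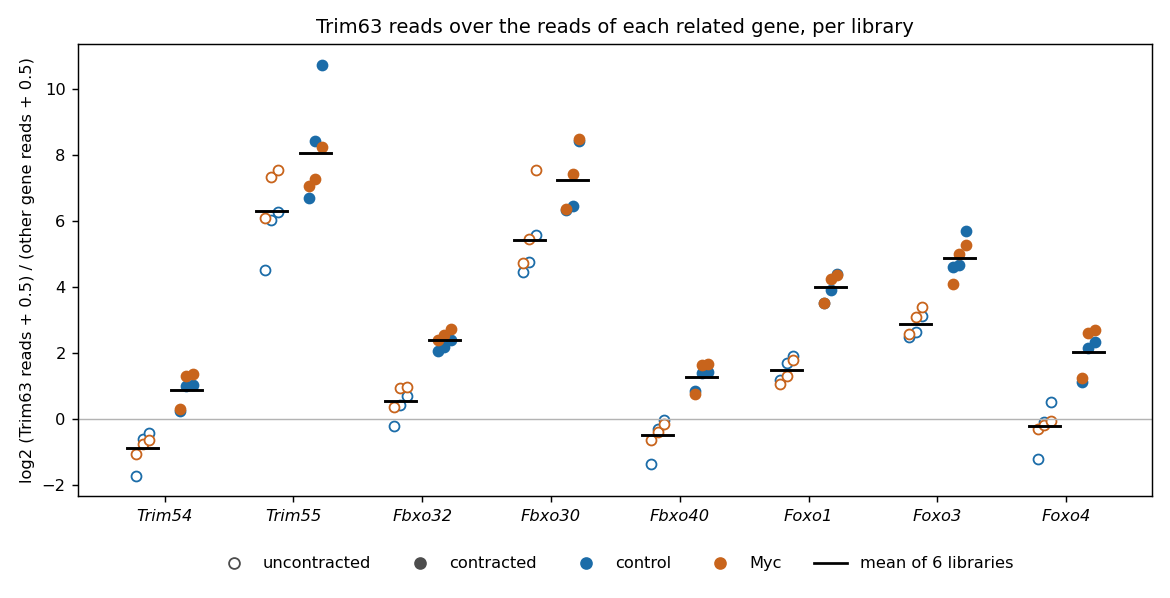
Log2 ratio of Trim63 reads to the reads of each related gene (vertical axis, 0.5 added to both) in the 12 libraries, with open points for uncontracted and filled points for contracted legs, blue for control and orange for Myc; short bars are means of 6 libraries. Contracted points lie above all uncontracted ones for Trim54, Fbxo32, Fbxo40, Foxo1, Foxo3 and Foxo4, and overlap them for Trim55 and Fbxo30.

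Myc over-expression, compared to ask what added Myc does in each leg, gave no call among the 7 genes tested in uncontracted or in contracted legs as labelled. EdgeR called 0% of 6676 genes in both comparisons and in the interaction, and DESeq2 called 0 as well. Myc itself was thus called by neither. Yet the uncontracted legs held 1 Myc read in all when labelled control and 29 when labelled Myc. The lack of calls is therefore no evidence that added Myc had no effect on these genes. At an unadjusted p under 0.05 the counts were 421, 204 and 331 genes (6.31, 3.06 and 4.96%), none of them among the 7. In uncontracted legs, where Myc reads followed the labels (0, 1 and 0 in control; 11, 9 and 9 in Myc), Trim63 differed by -0.12 ± 0.28 on the log2 scale (95% interval -0.709 to 0.472). The legs labelled Myc had the lower values of Fbxo40 (197 to 208 CPM against 227 to 244 CPM) and of Trim54 (255 to 276 CPM against 284 to 315 CPM) with no overlap, as 5.57% of genes tested did in this direction, and neither passed (-0.21 ± 0.13, edgeR adjusted p = 0.812, and -0.16 ± 0.13, edgeR adjusted p = 0.897). Fbxo32 differed by -0.48 ± 0.24 (edgeR adjusted p = 0.774), and by -0.26 without uncontracted control 3 or -0.32 without uncontracted Myc 3. In contracted legs, where the reads of Myc go against 4 labels, Trim63 differed by 0.30 ± 0.26 (95% interval -0.252 to 0.848), and by -0.33 without those 4 libraries.

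Genes around these ligases and factors were described by 8 lists, in the contraction comparison over both genotypes. Over all 6676 genes tested there, 5.71% were called higher and 1.77% lower, with a median of -0.00337 on the log2 scale. The list counts were not tested against these shares. Of 28 tested muscle ubiquitin ligase genes outside the 9, 4 rose and 24 did not pass (list median -0.0309). Klhl40, a kelch protein that stabilizes thin-filament proteins, stood at 171 ± 19.1 CPM in uncontracted and 994 ± 324 CPM in contracted legs (SD, n = 6) and rose by 2.54 ± 0.17 on the log2 scale. Asb5, of a SOCS-box family, rose by 0.85 ± 0.12 and the kelch gene Klhl41 by 0.35 ± 0.08.

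Of 26 genes of ubiquitin, conjugating and deubiquitinating enzymes 3 rose, 1 fell and 22 did not pass (median 0.0242). The deubiquitinases Otud1 and Usp28 rose by 3.49 ± 0.30 and 1.45 ± 0.25, and the polyubiquitin gene Ubb by 0.36 ± 0.09. The Ubb call was lost in 6 of 19 alternatives, 5 of them the loss of a single library (uncontracted control 1 or 2, uncontracted Myc 1, or contracted Myc 2 or 3, with changes of 0.29 to 0.33 and edgeR adjusted p = 0.0665 to 0.0876). Usp2, a deubiquitinase gene under clock control, fell by 0.37 ± 0.11, a call lost in 9 of 19 alternatives, library totals as the scaling (edgeR adjusted p = 0.143) and the animal as a block (edgeR adjusted p = 0.0601) among them.

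Among 29 genes of insulin, AKT and FoxO control 1 rose and 1 fell (median 0.0410). Irs2, an adaptor of the insulin receptor, rose by 0.94 ± 0.26, a call lost in 8 of 19 alternatives, DESeq2 among them (adjusted p = 0.0852). Sgk1, a kinase that like AKT phosphorylates FoxO factors, fell from 67.1 ± 6.76 to 39.9 ± 11.7 CPM (SD, n = 6), by 0.76 ± 0.15 on the log2 scale, with no overlap between legs, as in 0.869% of genes tested in this direction. Prkaa1 (0.61 ± 0.30) and Mtor (0.36 ± 0.20) did not pass.

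Of 16 tested FoxO target genes of metabolism and stress 7 rose, none fell and 9 did not pass (median 0.21). They include Ppargc1a, the coactivator of mitochondrial biogenesis (2.27 ± 0.26), Angptl4, a lipase inhibitor (2.04 ± 0.36), Eif4ebp1, a brake on translation (0.72 ± 0.14), and Gadd45a, a stress gene (1.36 ± 0.28). Of 30 autophagy and lysosome genes, many of them FoxO targets too, 1 rose, 1 fell and 28 did not pass (median 0.0446). Gabarapl1, of the ATG8 family, rose by 0.80 ± 0.16 and Atg14, a part of the autophagy lipid kinase, fell by 1.09 ± 0.27, although DESeq2 did not call Atg14 (adjusted p = 0.135). Ctsl (0.41 ± 0.16) and Bnip3l (-0.52 ± 0.20) did not pass.

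Glucocorticoids are known inducers of Trim63, and of 14 tested glucocorticoid response genes 4 rose and 2 fell (median 0.40). The metallothionein genes Mt1 (3.15 ± 0.22) and Mt2 (3.23 ± 0.23) had the highest changes, and Sgk1 and Ddit4, an inhibitor of mTOR signalling (-0.88 ± 0.23), fell. Other known regulators of Trim63 gave 4 higher and 10 not passed of 14 (median 0.32). They were the TWEAK receptor gene Tnfrsf12a (from 1.45 ± 0.898 to 17.7 ± 7.62 CPM, 3.54 ± 0.40), Stat3 (1.28 ± 0.15), Jund (1.084 ± 0.12) and Bcl3, a nuclear IκB protein (1.85 ± 0.40).

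The list of 23 tested genes compiled for proteins that MuRF1 binds or marks gave 1 higher, 1 lower and 21 not passed (median 0.00134). The higher one, Myod1, rose by 2.78 ± 0.26, but its protein, a myogenic factor, is known as a substrate of atrogin-1. Tcap, a titin cap protein, fell by 0.41 ± 0.09. All 6 contracted libraries were below the uncontracted ones for Tcap, as in 0.869% of genes tested in this direction. Desmin (Des, 0.27 ± 0.08, edgeR adjusted p = 0.0556) and Ldb3 (-0.26 ± 0.10) did not pass. With the 4 doubtful libraries left out, which leaves 2 contracted legs, 14 of the 30 genes named from these lists or for likeness below no longer passed and all 30 kept their direction. Among the 14 are Klhl41, Usp28, Ubb, Sgk1, Irs2, Angptl4, Eif4ebp1, Gadd45a, Gabarapl1, Atg14, Ddit4, Bcl3 and Tcap. Of the list genes named here that passed, the log2 changes that shrank by over 1.5 times became 0.14 for Irs2, 0.80 for Usp28, 0.22 for Ubb, -0.43 for Sgk1, 1.35 for Angptl4, 0.45 for Gabarapl1, 1.06 for Bcl3 and 1.37 for Ppargc1a. Usp2 grew to -0.62.

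**Figure D4:**
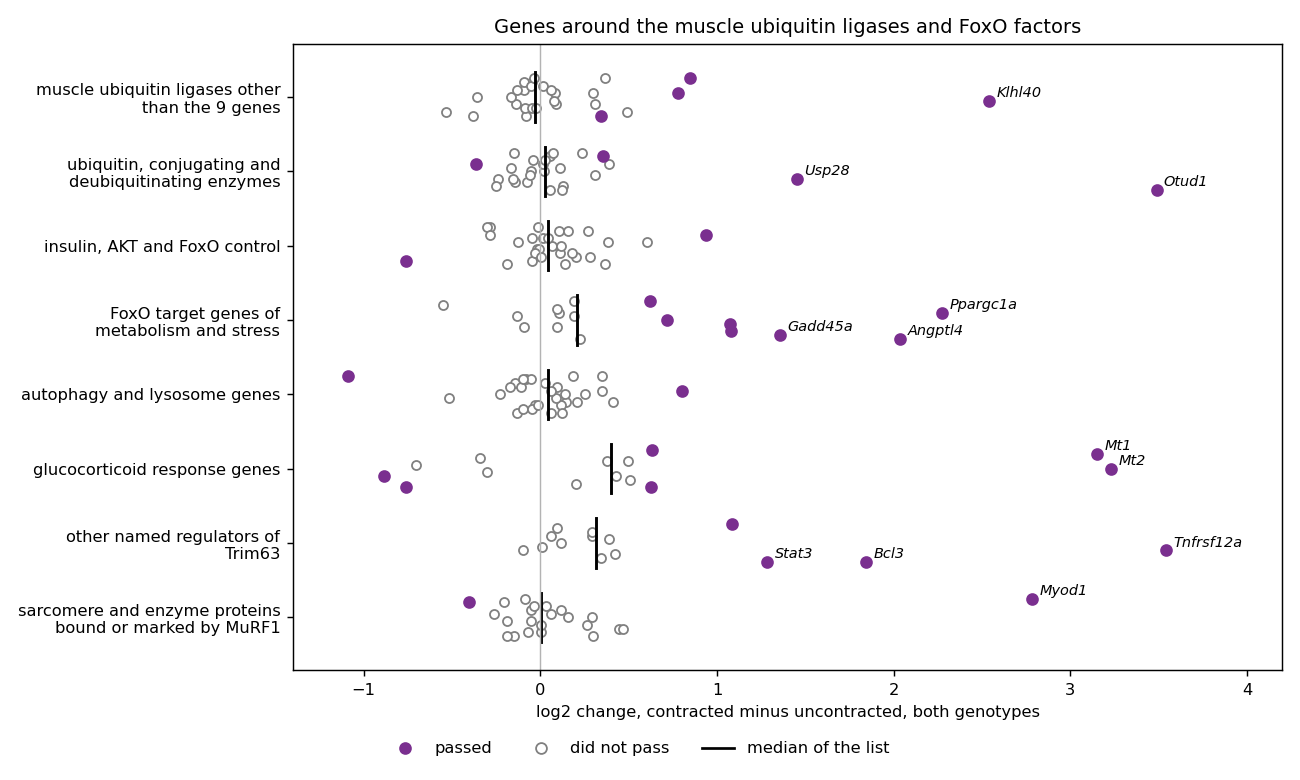
Log2 change from uncontracted to contracted legs over both genotypes (horizontal axis) for each tested gene of the 8 lists (rows); filled points passed, open points did not, and short vertical bars are list medians. Most points lie near 0, and the named points to the right include Klhl40 at 2.54, Otud1 at 3.49 and Tnfrsf12a at 3.54.

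The genes whose level over the 12 libraries was most like that of Trim63, by the correlation of log2 CPM, were Atf3 (Pearson r = 0.982, Spearman rho = 0.951), Flnc (0.981 and 0.979), Cnksr1 (0.977 and 0.986), Hspb1 (0.973 and 0.951) and Junb (0.972 and 0.965). They were chosen for this likeness, so no test is given, and the libraries form 2 clusters, the legs, that share the contraction step. Within the 6 contracted libraries r was 0.977 for Flnc, 0.948 for Cnksr1, 0.901 for Atf3, 0.888 for Hspb1 and 0.816 for Junb. Within the 6 uncontracted libraries it was 0.993 for Atf3, 0.957 for Cnksr1, 0.892 for Flnc, 0.890 for Junb and 0.799 for Hspb1. Atf3 and Junb were near the floor there, at 0 to 3.72 and 0.64 to 4.3 CPM. Over the 12 libraries 1 read was worth 0.609 to 0.783 CPM, so their r within uncontracted legs rests on few reads. Among the relatives, Fbxo32 and Fbxo40 had r of 0.879 and 0.831 with Trim63 within contracted legs, 0.47 and -0.28 within uncontracted legs, and 0.23 and 0.25 over all 12. In the same order r was -0.53, -0.635 and -0.83 for Foxo4, the strongest of the tested relatives over all 12. It was 0.64, 0.59 and -0.48 for Foxo1, 0.31, 0.59 and -0.063 for Foxo3, and 0.34, -0.26 and 0.23 for Trim54. Flnc encodes filamin C, an actin cross-linker of the Z-disc, and went from 55.7 ± 11.3 to 263 ± 74.4 CPM (SD, n = 6). Atf3 and Junb are stress-induced transcription factor genes, Hspb1 a small heat shock protein gene and Cnksr1 a scaffold of RAS signalling.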

How the data were processed

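The submitters sequenced RNA of 12 gastrocnemius samples with a QuantSeq 3' kit, per the labels' protocols, and the authors deposited 1 table of gene counts (whole reads, not normalized). The submitters' processing notes list FastQC 0.11.5, STAR 2.5.2a, SAMtools, HTSeq 0.6.0 and mm10, without roles; the strand setting is not given in the sources used here. Antisense genes overlapping Trim54, Fbxo32 and Foxo1 held at most 1 read in any library. Symbols were matched for 47224 of 47643 identifiers, and positions are from GENCODE M21.

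EdgeR 4.0.16 (R 4.3.3; quasi-likelihood F test, TMM, filterByExpr at its minimum count of 10, 4 group means over all 12 libraries) was fitted to 6676 genes, Benjamini-Hochberg adjusted, threshold 0.05, and tested on simulated data. The SE is the log2 change over the square root of F. Ratios had 0.5 reads added. Named genes were the 9, Myc, up to 4 per list with the smallest contraction p, any list gene called for Myc or the interaction (none was), and the 5 most like Trim63 (log2 CPM, prior count 2). The values of 1 named gene are not reported here. Members and lists were chosen with earlier results of these data known. Libraries of a group differed beyond sampling noise (chi-square per degree of freedom 2.56 to 10.1). Titles tie both legs to 1 animal, and the legs' deviations from their group means had correlations of -0.122 to 0.112. Nothing more is said of the replicates than that they are separate animals. Alternatives were RLE scaling, library totals, DESeq2 1.42.0, other filters, an animal block, a pseudocount of 2 for ratios, each library left out, and the 4 doubtful libraries left out. Intervals at 95% for shares cover counting error only.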

Additional observations from a re-analysis of the deposited data

Results flagged for a closer look

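Trim55 stood out because its reads moved in opposite directions in the 2 genotypes as labelled: contracted legs were lower than uncontracted ones in all 3 animals labelled control and higher in all 3 labelled Myc. The mean within-animal log2 changes of the genotypes differed by 2.71 (Myc minus control, 0.5 reads added). The low-count filter left the gene, with 43 reads in all, out of the main test, so the difference was not tested there. In the fits that kept it the interaction was 2.87 ± 1.03 without the filter (edgeR, unadjusted p = 0.00558, adjusted p = 0.790) and 2.94 ± 1.48 with DESeq2 (unadjusted p = 0.0480, adjusted p = 0.999), neither past the threshold. The fit without the filter used no gene-wise spread. In Myc 1 both legs held 1 read, so its direction comes from the library sizes alone, and the contracted legs of Myc 2 and 3, with 9 and 8 reads, are among the 4 libraries whose Myc reads go against the label.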

How the results depend on the processing

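Trim63 rose with contraction in 19 of 19 alternatives over both genotypes, and its ratio to Trim54, Fbxo32, Fbxo40, Foxo1, Foxo3 and Foxo4 passed in 15 of 15. Foxo1 passed in 17 of 19 and Foxo4 in 12 of 19. Where a value below moved, the cause was not tested unless fewer samples or genes set it. Library totals of 1371732 to 1643216 reads gave Trim55 and Fbxo30 few reads; the main filter left them out, and without it neither was called in any comparison.

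Leaving out the 4 contracted libraries numbered 2 and 3 cut the genes called from 499 to 107 over both genotypes, from 187 to 67 in control animals and from 260 to 59 in Myc animals, where the members called went from 1 to 0. Calls for Myc in uncontracted legs went from 0 to 6. The Trim63 ratio to Trim55 and Fbxo30 was then 1.17 and 0.99 on the log2 scale, neither past the threshold. Log2 changes of opposite sign there were -0.0787 for Fbxo40 over both genotypes, 0.19 for Trim54 in control animals, and -0.0680, -0.62, -0.0944 and -0.0222 for Trim54, Fbxo32, Fbxo40 and Foxo3 in Myc animals. Between contracted legs they were -0.33 for Trim63 and -0.25 for Fbxo40, and in the interaction -0.21, -0.26, -0.0638 and -0.0313 for Trim63, Trim54, Fbxo32 and Fbxo40. Each of these, like all 47 reversed values, failed the threshold.

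Without a low-count filter the calls were 305 in control animals, 433 in Myc animals (2 members, Foxo1 being added at -0.75, edgeR adjusted p = 0.00878), 24 and 5 for Myc in uncontracted and contracted legs and 18 for the interaction. That fit had infinite prior degrees of freedom, so it used no gene-wise spread. With library totals alone Trim54 was at 0.0155 in control animals and 0.00778 between contracted legs. The Foxo4 interaction was 0.000651 with RLE scaling, 0.0109 with at least 20 reads in 3 libraries and 0.00619 with the animal as a replicate block. The block called 443 genes over both genotypes, and of the named genes Usp2 lost its call. With legs paired by animal the Trim63 ratio to Trim55 was unchanged at 1.76, with an adjusted p of 0.0625 by the exact sign-flip test. No paired analysis was possible for Myc within a leg because each animal has 1 genotype.

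Leaving out each library in turn gave 350 to 723 calls over both genotypes (1 to 3 members), 116 to 313 in control animals (1 to 2 members), 147 to 517 in Myc animals (1 to 2 members), 0 for Myc in either leg and 0 to 4 for the interaction. The most calls came without contracted control 1 (313) or contracted Myc 1 (723, 517 and 4), the fewest without contracted control 3 (116) or contracted Myc 2 (350) or 3 (147). The ratio of Trim63 ranged from 1.23 to 2.04 against Trim55 and from 1.59 to 2.26 against Fbxo30. Signs turned within these ranges, none past the threshold. Over both genotypes they were -0.0195 to 0.0987 for Trim54, -0.146 to 0.0874 for Fbxo32 and -0.0168 to 0.0897 for Fbxo40. In control animals Trim54 ranged from -0.136 to 0.0578, and in Myc animals Fbxo32 from -0.0528 to 0.41 and Foxo3 from -0.0465 to 0.28. For Myc in uncontracted legs Trim63 ranged from -0.40 to 0.14. Between contracted legs Trim54 ranged from -0.0991 to 0.0780, Fbxo32 from -0.29 to 0.18, Foxo1 from -0.0962 to 0.44 and Foxo4 from -0.30 to 0.0907. In the interaction Foxo1 ranged from -0.33 to 0.26 and Foxo4 from -0.16 to 0.23.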
